A study of Mus musculus with 45 samples.

Results

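The cell cycle genes described here are 50 genes for cyclins, cyclin-dependent kinases, replication proteins, mitotic proteins, the transcription factors that drive them and their inhibitors. They were matched by gene symbol among the 23284 genes listed for each RNA-seq library of mouse heart, and all 50 were found. By function, 8 were G1 cyclins and kinases, 9 were replication genes, 6 were cell cycle transcription factors, 20 were mitosis genes and 7 were inhibitors and pocket proteins. The comparison was made over 6 libraries in 5 groups. Unoperated adult heart had 2 libraries, and heart of embryos at E12.5 (E for embryonic day), E12.5 heart labelled Gata4 KO (the KO-labelled library below), heart after banding and heart after sham surgery had 1 each. Banding is a constriction placed to load the heart with pressure, and sham is the same surgery without it. All are primary heart tissue with no treatment other than the surgery named. The labels give no strain, and no age for banding and sham. The protocols name Gata4fbio, Rosa26BirA, cTNTcre and Gata4flox alleles for the series, but which animals carried them is not given. cTNTcre is a Cre driven by a cardiac troponin T promoter, which is active in cardiomyocytes. RNA was pooled before library preparation, and the labels leave unstated whether the 2 adult libraries are from different animals. A p-value here therefore rests on the spread between those 2 libraries only. The E12.5 library gives no spread of its own and was assumed to vary like adult. The other 39 samples of the series are chromatin libraries, which were not analysed here.

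A dividing cell passes a commitment point in G1, where D-type cyclins with Cdk4 and Cdk6, and then E-type cyclins with Cdk2, phosphorylate the pocket proteins Rb1, Rbl1 and Rbl2 and release E2F transcription factors. E2F factors switch on the replication genes, and later Mybl2 and Foxm1 switch on the mitosis genes. In cells at rest, pocket proteins hold both sets off through E2F sites and through a promoter element called the cell cycle genes homology region (CHR). Mouse cardiomyocytes divide in the embryo and mostly leave the cell cycle soon after birth, while other cells of the heart can still divide later.

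The promoters of the genes are shown first because the classes below differ in these elements. The windows run from 150 bases before to 30 bases after the annotated start, from the RefSeq promoter table for GRCm38.p6, a later build than the mm9 named for the reads. Capitals mark CHR, E2F and CCAAT box matches on either strand. Ccnb2, Cdk1 and Kif11 stand for the mitosis genes, Mcm6 for the replication genes and Rbl2 for the members that were higher in adult heart.
Ccnb2 (chr9:70421525-70421704, minus strand): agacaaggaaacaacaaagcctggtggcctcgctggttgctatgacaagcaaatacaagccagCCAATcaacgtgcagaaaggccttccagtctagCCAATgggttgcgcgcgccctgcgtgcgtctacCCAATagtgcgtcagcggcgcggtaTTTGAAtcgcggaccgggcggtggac
Cdk1 (chr10:69352883-69353062, minus strand): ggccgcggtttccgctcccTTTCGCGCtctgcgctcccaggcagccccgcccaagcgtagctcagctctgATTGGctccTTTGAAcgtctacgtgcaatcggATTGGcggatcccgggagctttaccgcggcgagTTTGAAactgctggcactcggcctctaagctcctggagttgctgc
Kif11 (chr19:37376232-37376411, plus strand): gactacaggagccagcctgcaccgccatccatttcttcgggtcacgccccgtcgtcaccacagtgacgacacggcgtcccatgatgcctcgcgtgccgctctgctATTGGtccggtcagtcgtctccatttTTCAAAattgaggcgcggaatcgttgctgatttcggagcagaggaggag
Mcm6 (chr1:128359676-128359855, minus strand): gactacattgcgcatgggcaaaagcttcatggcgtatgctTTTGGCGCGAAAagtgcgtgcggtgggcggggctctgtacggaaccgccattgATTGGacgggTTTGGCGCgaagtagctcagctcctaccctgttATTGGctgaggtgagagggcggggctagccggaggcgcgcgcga
Rbl2 (chr8:91069907-91070086, plus strand): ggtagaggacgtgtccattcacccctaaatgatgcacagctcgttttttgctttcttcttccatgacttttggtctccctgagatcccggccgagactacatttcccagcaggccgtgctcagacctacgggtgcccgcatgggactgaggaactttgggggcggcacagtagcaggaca

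Ccnb2 had 3 CCAAT boxes in the shown window and a CHR at 5 to 10 bases after the start. Cdk1 had a CHR at positions -15 to -10 relative to the start, another farther upstream, and an E2F match farther upstream still. Kif11 had a CHR on the opposite strand, at positions -19 to -14. Mcm6 had no CHR but 3 E2F matches, 2 of which overlapped. Rbl2 had none of these elements in the shown window. In the longer window of 300 bases searched below, Rbl2 had a CHR match at positions -201 to -196. It was the 1 gene of 6 in its class with such a match. The RefSeq promoter table held no promoter for Rb1.

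The table held a promoter for 39 of the 50 genes and for 27025 genes in all. The search used the deposited window of 300 bases per start and both strands, and counted a gene once if any of its promoters matched. The CHR was searched as TTTGAA and TTCGAA, and matches stood in 13 of 15 mitosis genes (86.7%) against 21.7% of all genes. Of those 13 genes, 12 had a match between 25 bases before and 50 bases after the start. In the 150 bases nearest the start the share was again 86.7% for mitosis genes and 9.87% for all genes. The 5 G1 genes with a promoter had no CHR match, and 2 of 8 replication genes had one. E2F sites were searched as TTTCCCGC, TTTGGCGC, TTTCGCGC, TTTGCCGC, TTCCCGCC and TTGGCGGG. They stood in 5 of 8 replication genes (62.5%), in 3 of 5 transcription factor genes and in 1 of 15 mitosis genes (6.67%), against 5.34% of all genes. The CCAAT box, the site of the factor NF-Y, stood in all 8 replication genes with a promoter and in 13 of 15 mitosis genes, against 41.1% of all genes. The GC box GGGCGG stood in 34 of the 39 genes (87.2%), against 38.2% of all genes. Single bases may belong to more than one match. A match is a description of these letters, and binding was not measured here.

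**Figure D1:**
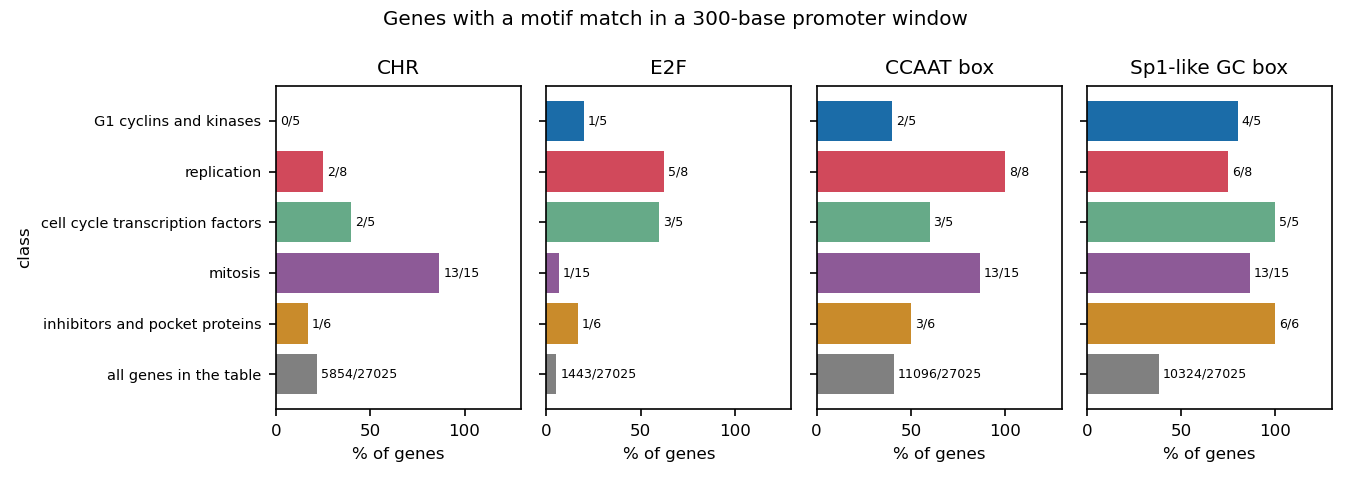
Share of genes with a motif match in their RefSeq promoter windows, by class; bars start at 0 and the fractions give genes with a match over genes with a promoter. The CHR was found in 13 of 15 mitosis genes and E2F sites in 5 of 8 replication genes, against 21.7% and 5.34% of all genes.

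Values are log2(FPKM + 1), where FPKM is the number of fragments per kilobase of transcript, scaled to the mapped reads of the library. Reads recovered from these values gave 12086929 to 21056784 mapped reads per library. The listed genes took 83.6% and 83.9% of mapped reads in the adult libraries, 75.9% and 76.8% in both E12.5 libraries, and 58.0% and 55.6% in banding and sham. Rn45s, the precursor of ribosomal RNA, had levels of 12.96 (banding) and 12.94 (sham) against 6.21 to 8.94 in the other 4 libraries. Its part in the levels of other genes was not tested. Cardiomyocyte markers (8 of 8 above 0 in every library) summed to between 5340 and 28300 FPKM. Gata4 stood at 6.13 in the KO-labelled library and at 5.93 in E12.5, so its level goes against that label. Whether the counted reads cover the deleted part of the gene is not known from these tables. In whole tissue, fewer cells of a dividing type and less RNA per cell cannot be told apart.

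Per 1000000 mapped reads, the 50 genes drew 5600 reads in E12.5 and 4930 in the KO-labelled library, against 487 and 537 in adult, 390 in banding and 261 in sham. All 50 reached 1 FPKM in both E12.5 libraries. Of the 50, 26 reached it in at least 1 adult library and 24 in neither. Those 24 entered the adult comparison only through their E12.5 level and could not have entered it had E12.5 been low.

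**Figure D2:**
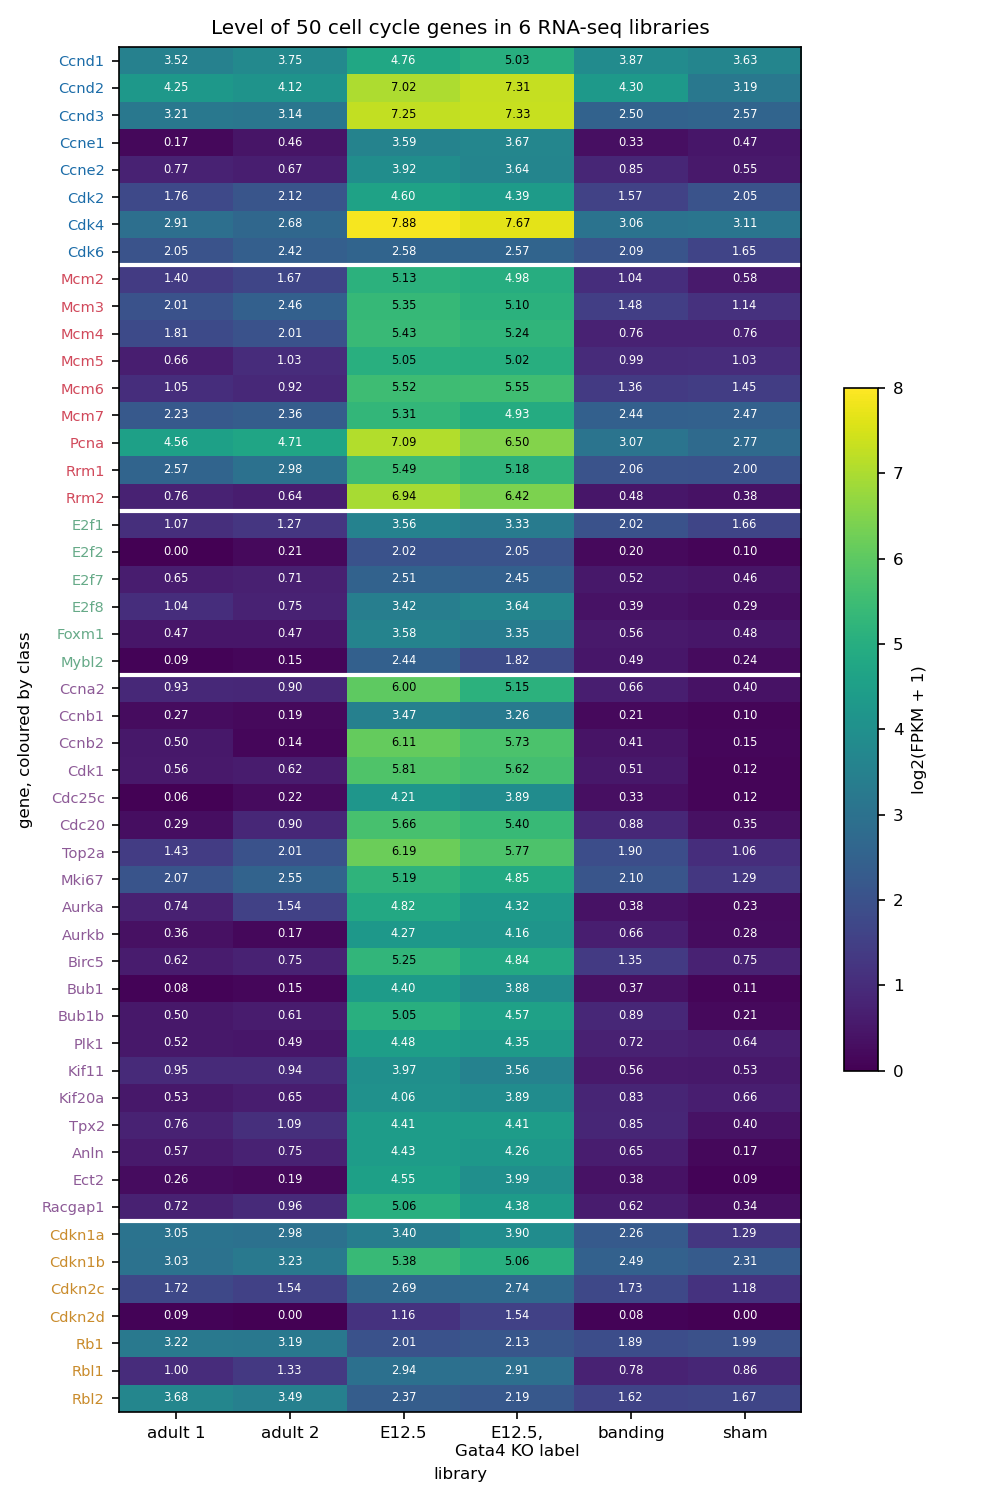
Level of each of the 50 genes, in log2(FPKM + 1), in each of the 6 libraries, ordered and coloured by class. The E12.5 library and the KO-labelled library are high for most genes, and Rb1 and Rbl2 are highest in the adult libraries.

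Adult against E12.5 asks how the cell cycle programme of the embryonic heart compares with that of the grown heart. Of the 50 genes, 46 fell in adult, 2 rose (Rb1 and Rbl2) and 2 did not pass (Cdk6 and Cdkn1a) by limma with Benjamini-Hochberg adjustment at 0.05. Over all 12658 genes tested, 48.4% fell and 23.4% rose, and the median difference was -0.51 against -3.26 for the 50 genes. By class, the median difference was -4.15 for mitosis, -3.52 for replication, -3.02 for G1 cyclins and kinases, -2.36 for transcription factors and -1.06 for inhibitors and pocket proteins. Summed over the class as deposited, adult FPKM was 2.42% of E12.5 FPKM for mitosis, 8.36% for replication and 8.46% for G1 cyclins and kinases. It was 7.48% for transcription factors and 53.0% for inhibitors and pocket proteins. With the libraries scaled by median of ratios, these values were 3.55%, 12.3%, 12.4%, 11.0% and 77.8%, in the same order. The last was 74.1% with the libraries scaled to a common upper quartile and 66.8% without the 50 genes of highest FPKM.

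All 8 G1 cyclins and kinases were lower in adult, and 7 of 8 passed. Cdk4, a kinase partner of the D-type cyclins, stood at 2.91 and 2.68 in adult, 7.88 in E12.5, 7.67 in the KO-labelled library, 3.06 in banding and 3.11 in sham. It fell by 5.08 (SE 0.15, adjusted p = 0.00398), and both E12.5 libraries lay above all 4 others. Ccnd3, a D-type cyclin, stood at 3.21 and 3.14 in adult, 7.25 in E12.5, 7.33 in the KO-labelled library, 2.50 in banding and 2.57 in sham, and fell by 4.08 (SE 0.08, adjusted p = 0.00398). The E-type cyclins, which act with Cdk2 at the entry to S phase, were below 1 in every library outside the embryo. Ccne1 stood at 0.17 and 0.46 in adult (3 and 9 reads), 3.59 in E12.5, 3.67 in the KO-labelled library, 0.33 in banding and 0.47 in sham. Ccne2 stood at 0.77 and 0.67 in adult, 3.92 in E12.5, 3.64 in the KO-labelled library, 0.85 in banding and 0.55 in sham. Ccne1 fell by 3.28 (SE 0.18) and Ccne2 fell by 3.2 (SE 0.12). Cdk2, Ccnd2 and Ccnd1 fell by 2.66, 2.83 and 1.12, with adjusted p from 0.00398 to 0.0173. Ccnd1 lost its call when no filter was set on low values.

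Cdk6 was the G1 kinase with the smallest difference. It stood at 2.05 and 2.42 in adult, 2.58 in E12.5, 2.57 in the KO-labelled library, 2.09 in banding and 1.65 in sham, a difference of -0.35 (SE 0.23, adjusted p = 0.276). With the libraries scaled to a common upper quartile or by median of ratios the difference was 0.04 or 0.10. Within the 4 kinases Cdk1, Cdk2, Cdk4 and Cdk6, the FPKM share of Cdk6 was 1.57% in E12.5 against 25.1% and 31.9% in adult. Cdk4 held 73.7% of that sum in E12.5 and 52.2% and 39.6% in adult. Among the D-type cyclins, Ccnd3 held 49.4% in E12.5 and 22.4% and 21.3% in adult, and Ccnd1 held 8.50% in E12.5 and 28.4% and 34.0% in adult. These shares do not depend on how libraries are scaled to each other.

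All 9 replication genes fell, with differences from -6.24 to -2.46 and adjusted p from 0.00398 to 0.009. Rrm2, the regulated small subunit of ribonucleotide reductase, had the largest difference of the 50 genes on the log2(FPKM + 1) scale. It stood at 0.76 and 0.64 in adult, 6.94 in E12.5, 6.42 in the KO-labelled library, 0.48 in banding and 0.38 in sham, and its adult FPKM was 0.511% of that in E12.5, where Ccnb2 (0.38%) and Bub1 (0.414%) kept less. Rrm1, the large subunit of the same enzyme, stood at 2.57 and 2.98 in adult against 5.49 in E12.5, or 13.5% by FPKM. The MCM genes encode the 6 subunits of the replicative helicase. Mcm6 stood at 1.05 and 0.92 in adult, 5.52 in E12.5, 5.55 in the KO-labelled library, 1.36 in banding and 1.45 in sham. Mcm5 stood at 0.66 and 1.03 in adult, 5.05 in E12.5, 5.02 in the KO-labelled library, 0.99 in banding and 1.03 in sham. Mcm2 stood at 1.4 and 1.67 in adult, 5.13 in E12.5, 4.98 in the KO-labelled library, 1.04 in banding and 0.58 in sham. The 6 subunits lay between 5.05 and 5.52 in E12.5 and between 0.66 and 2.46 in adult, and the ranges did not overlap. Pcna, the sliding clamp of the replication fork, kept the highest adult level of the class at 4.56 and 4.71, against 7.09 in E12.5.

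All 6 cell cycle transcription factors fell, with differences from -3.11 to -1.83 and adjusted p from 0.00398 to 0.0072. Of these 6, 2 reached 1 FPKM in at least 1 adult library, and the others entered only through their E12.5 level. Foxm1, an activator of mitosis genes, stood at 0.47 in both adult libraries, 3.58 in E12.5, 3.35 in the KO-labelled library, 0.56 in banding and 0.48 in sham. Mybl2, which joins Foxm1 at those genes, stood at 0.09 and 0.15 in adult (3 and 5 reads), 2.44 in E12.5, 1.82 in the KO-labelled library, 0.49 in banding and 0.24 in sham. E2f8, a repressor of the E2F family, stood at 1.04 and 0.75 in adult, 3.42 in E12.5, 3.64 in the KO-labelled library, 0.39 in banding and 0.29 in sham. The activator E2f1 kept the highest level of the class outside the embryo. It stood at 1.07 and 1.27 in adult, 3.56 in E12.5, 3.33 in the KO-labelled library, 2.02 in banding and 1.66 in sham. E2f2 and E2f7 fell by 1.92 and 1.83.

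All 20 mitosis genes fell, with differences from -5.79 to -2.88 and adjusted p from 0.00398 to 0.0146. Of these 20, 4 reached 1 FPKM in at least 1 adult library. The others entered only through their E12.5 level and could not have entered had E12.5 been low. Ccnb2, a B-type cyclin, stood at 0.50 and 0.14 in adult (8 and 2 reads), 6.11 in E12.5 (2205 reads), 5.73 in the KO-labelled library, 0.41 in banding and 0.15 in sham. Cdk1, the kinase that B-type cyclins activate, stood at 0.56 and 0.62 in adult, 5.81 in E12.5, 5.62 in the KO-labelled library, 0.51 in banding and 0.12 in sham. Adult FPKM was 0.38% of E12.5 for Ccnb2 and 0.915% for Cdk1, against 6.32% for Kif11, and all 3 promoters shown above carry a CHR near the start. Ccna2, the A-type cyclin of S phase and mitosis, stood at 0.93 and 0.90 in adult, 6.0 in E12.5, 5.15 in the KO-labelled library, 0.66 in banding and 0.40 in sham. Cdc20, which activates the anaphase-promoting complex, stood at 0.29 and 0.90 in adult, 5.66 in E12.5, 5.40 in the KO-labelled library, 0.88 in banding and 0.35 in sham.

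The other 16 mitosis genes fell by less than these 4 on the log2(FPKM + 1) scale. By FPKM, Bub1 (0.414% of E12.5), Cdc25c (0.591%) and Ect2 (0.744%) kept less in adult than Cdk1 did. Among the spindle checkpoint genes, Bub1b fell by 4.50 and Bub1 by 4.29. Among the genes of cytokinesis, Ect2 fell by 4.33, Racgap1 fell by 4.22 and Anln fell by 3.77. The mitotic kinases Aurkb, Plk1 and Aurka fell by 4.01, 3.98 and 3.68, and Aurka had the widest adult pair of the 50 genes on this scale at 0.74 and 1.54. Aurka lost its call when no filter was set on low values. Birc5, the survivin subunit of the Aurkb complex, fell by 4.57, and Cdc25c, a phosphatase that activates Cdk1, fell by 4.07. Of the genes for spindle motors and their partners, Tpx2, Kif20a and Kif11 fell by 3.49, 3.48 and 3.03. Ccnb1 fell by 3.24. Mki67, a coat protein of mitotic chromosomes used as a proliferation marker, kept the highest adult level of the class, 2.07 and 2.55 against 5.19 in E12.5, and Top2a, the topoisomerase that untangles chromosomes, followed at 1.43 and 2.01 against 6.19.

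The inhibitors and pocket proteins divided, with 4 that fell, 2 that rose and 1 that did not pass. Rb1, the retinoblastoma protein, stood at 3.22 and 3.19 in adult, 2.01 in E12.5, 2.13 in the KO-labelled library, 1.89 in banding and 1.99 in sham. It rose by 1.20 (SE 0.11, adjusted p = 0.00958 by limma). Rbl2, the pocket protein typical of resting cells, stood at 3.68 and 3.49 in adult, 2.37 in E12.5, 2.19 in the KO-labelled library, 1.62 in banding and 1.67 in sham. It rose by 1.22 (SE 0.14, adjusted p = 0.0136 by limma). Neither gene was higher in sham than in E12.5 as deposited. With median-of-ratios scaling, sham and E12.5 stood at 2.45 and 1.61 for Rb1 and at 2.10 and 1.94 for Rbl2. Rbl1, the pocket protein typical of dividing cells, stood at 1.00 and 1.33 in adult, 2.94 in E12.5, 2.91 in the KO-labelled library, 0.78 in banding and 0.86 in sham, and fell by 1.78 (SE 0.20, adjusted p = 0.013). Within the 3 pocket proteins, Rbl1 held 48.2% of FPKM in E12.5 and 4.76% and 7.59% in adult, and Rbl2 held 30.1% in E12.5 and 56.0% and 51.6% in adult.

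Cdkn1b, the p27 inhibitor of cyclin-Cdk2, stood at 3.03 and 3.23 in adult, 5.38 in E12.5, 5.06 in the KO-labelled library, 2.49 in banding and 2.31 in sham. It fell by 2.25 (SE 0.14, adjusted p = 0.00586), and its adult FPKM was 19.1% of E12.5. Cdkn1a, the p21 inhibitor, stood at 3.05 and 2.98 in adult, 3.40 in E12.5, 3.90 in the KO-labelled library, 2.26 in banding and 1.29 in sham. Its difference of -0.39 (SE 0.11) did not pass (adjusted p = 0.0653) and was 0.04 with upper-quartile and 0.11 with median-of-ratios scaling. Cdkn2c, an inhibitor of Cdk4 and Cdk6, fell by 1.06 (SE 0.15, adjusted p = 0.0183), but its difference was -0.65 and -0.61 on those scales and did not pass there. Cdkn2d, of the same family, had 1 and 0 reads in adult and 33 in E12.5, so its fall of 1.12 on this scale understates the change. Within these 4 inhibitors, Cdkn1a held 16.8% of FPKM in E12.5 and 43.3% and 40.1% in adult.

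**Figure D3:**
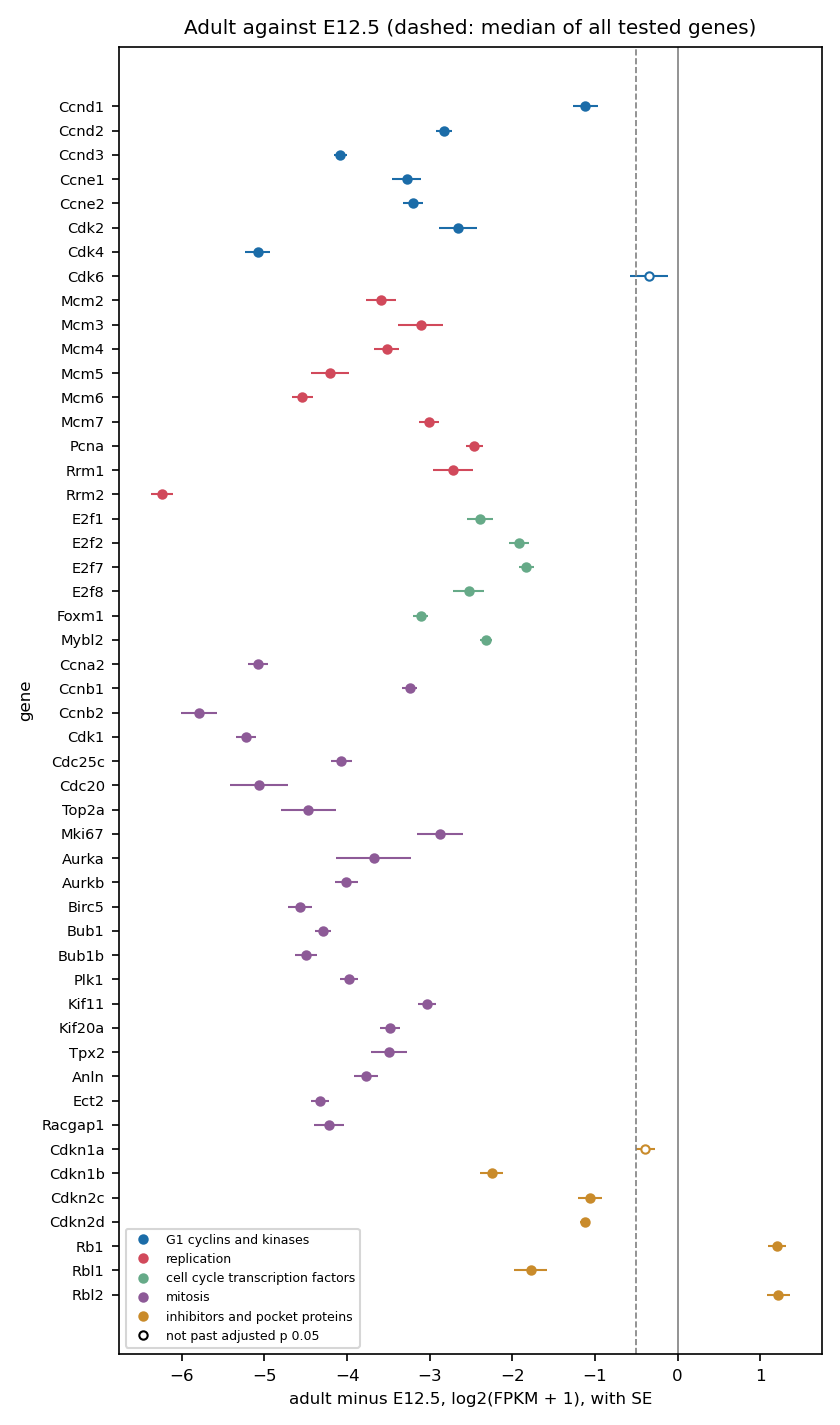
Adult minus E12.5 in log2(FPKM + 1) for each of the 50 genes, with standard errors from limma; filled points passed adjusted p 0.05 and the dashed line is the median of all tested genes, -0.51. The 20 mitosis genes lie between -5.79 and -2.88, and Rb1 and Rbl2 are the points to the right of 0.

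Cell type markers moved with the same contrast. Erythroid markers summed to 21300 FPKM in E12.5 and to 0.521 and 1.45 in adult, where 7 and 5 of the 8 markers were at 0. Epicardial markers summed to 122 FPKM in E12.5 and to 10.3 and 7.30 in adult, and cardiomyocyte markers to 8500 in E12.5 and to 28200 and 28300 in adult. Their part in the differences was not tested.

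Further genes of the same steps were taken as lists. In at least 1 adult library, 18 of 51 other mitosis genes and 31 of 46 other replication genes reached 1 FPKM. So did 22 of 30 others of G1 and S phase entry. The remaining tested genes entered only through their E12.5 level and could not have entered had E12.5 been low. Of 51 other mitosis genes, 50 were tested and all 50 fell by limma, with a median of -3.00. Cks2, a partner of Cdk1, Ube2c, an enzyme of the anaphase-promoting complex, and Cdca3 had the largest differences on the log2(FPKM + 1) scale, -6.31, -5.66 and -5.37. Of 46 other replication genes, 42 fell and 2 rose, with a median of -2.24. Rpa3, Gins2 and Uhrf1 fell by 5.13, 4.60 and 4.06, and Rrm2b, the form of the small reductase subunit that p53 induces, and the origin subunit Orc4 rose by 1.44 and 0.77. Thus Rrm2 and Rrm2b, which fill the same place in ribonucleotide reductase, differed in direction. Of 26 tested genes among 30 others of G1 and S phase entry, 19 fell and 4 rose. Cks1b, Cdkn1c (the p57 inhibitor) and Cdkn3 fell by 6.76, 5.25 and 4.23. Ccng1, a target of p53, rose by 3.18, Fbxw7, which marks cyclin E for destruction, rose by 2.35, Tfdp2, a partner of E2F factors, rose by 1.45, and E2f6, a repressor, rose by 0.85. As deposited, Ccng1, Tfdp2, E2f6, Rrm2b and Orc4 were below their E12.5 level in both banding and sham. For Ccng1 the deposited levels were 4.83 in banding and 4.77 in sham against 5.23 in E12.5. Median-of-ratios scaling multiplies FPKM by 0.681 in E12.5, 1.443 in banding and 1.501 in sham. On that scale Ccng1, Tfdp2 and Orc4 lay above E12.5 in both banding and sham. Fbxw7 was above E12.5 in both already as deposited, at 3.86 and 3.83 against 1.90. The count and the names in these lists were set with earlier results of the same libraries known.

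Banding against sham asks whether cell cycle genes differ in the heart under pressure load. The comparison has 1 library per group, so no test was made and no replicate error is known. Ratios of FPKM carry exact 95% intervals from the reads, which cover counting error only. Counts and intervals here are on the deposited scale unless another is named. As deposited, all 20 mitosis genes had a higher level in banding than in sham. So did 53.8% of all 16828 genes with a read in either library. Without the 50 genes of highest FPKM, the multipliers were 1.412 for banding and 1.551 for sham, which put Kif11 lower in banding. For 10 of the 20 the interval lay above 1, against 16.6% of all genes. Summed mitosis FPKM was 16.3 in banding and 7.14 in sham, and the pooled reads, 1126 and 422, gave a ratio of 2.30 (2.06 to 2.58). The ratio of summed mitosis FPKM was 2.28 as deposited, 2.21 with upper-quartile and 2.19 with median-of-ratios scaling. It was 2.08 without the 50 genes of highest FPKM. Of all 50 genes, 40 were higher. The interval lay above 1 for 16 genes and below 1 for 1, Cdk2, against 11.8% of all genes below.

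The levels were low, and the size rule, at least 2-fold on the log2(FPKM + 1) scale with at least 5 FPKM in the higher library, was met by 1 gene, Ccnd2. Over all 11011 genes with at least 1 FPKM in either library, 1.16% were higher and 0.463% lower by that rule. Ccnd2, a D-type cyclin, stood at 4.30 in banding (1509 reads) and 3.19 in sham (565 reads), a ratio of 2.30 (2.09 to 2.54). As deposited, the adult libraries stood at 4.25 and 4.12, so banding lay beside adult and sham below both. With median-of-ratios scaling banding (4.80) lay above both adult libraries (4.27 and 4.10), and sham (3.72) still lay below both. Ccnd2 held 50.5% of D-type cyclin FPKM in banding, 33.2% in sham and 49.2% and 44.6% in adult. Ccnd1 differed less, 3.87 against 3.63 (ratio 1.20, 1.07 to 1.34), and Ccnd3 stood at 2.50 and 2.57 (ratio 0.944, 0.736 to 1.21).

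Cdkn1a, the p21 inhibitor, stood at 2.26 in banding (103 reads) and 1.29 in sham (34 reads), a ratio of 2.61 (1.76 to 3.97). It met the size rule on the upper-quartile and median-of-ratios scales, where 2 of the 50 genes did so, against 144 and 139 of all 11011 genes. Top2a stood at 1.90 in banding (199 reads) and 1.06 in sham (68 reads), a ratio of 2.52 (1.91 to 3.37). Mki67 stood at 2.10 in banding (464 reads) and 1.29 in sham (176 reads), a ratio of 2.27 (1.91 to 2.72). So an inhibitor and 2 proliferation genes were higher together in banding than in sham. As deposited, Cdkn1a in banding lay below both adult libraries, at 3.05 and 2.98. Top2a and Mki67 in banding lay between the adult libraries, at 1.43 and 2.01 and at 2.07 and 2.55. With median-of-ratios scaling, Cdkn1a (2.70) was still below both adult libraries, Mki67 (2.52) between them and Top2a (2.30) above both. Birc5 (74 and 28 reads) had a ratio of 2.28 (1.46 to 3.66). Bub1b (44 and 7 reads) had a ratio of 5.42 (2.42 to 14.3), and Anln (43 and 8 reads) one of 4.64 (2.15 to 11.4). Tpx2, Cdc20, Bub1, Cdk1 and Ect2 also had intervals above 1, on 3 to 17 reads in sham. Cdk1 and Ect2, each with 17 reads against 3, had a ratio of 4.89 (1.41 to 26.0). The intervals of Kif11 (ratio 1.06, 0.613 to 1.85) and Plk1 (1.15, 0.560 to 2.41) included 1.

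G1 cyclins and kinases had a pooled ratio of 1.55 (1.46 to 1.65), with 3 of 8 intervals above 1 (Ccnd1, Ccnd2 and Cdk6) and Cdk2 below. The pooled ratio was 1.12 (1.00 to 1.25) for replication, where Mcm2 alone had an interval above 1 (2.16, 1.26 to 3.82). As deposited, 6 of 9 replication genes were higher. With median-of-ratios scaling Mcm4 was lower in banding, at 1.00 against 1.03 in sham. The ratio of summed replication FPKM was 1.14 as deposited, 1.11 with upper-quartile and 1.10 with median-of-ratios scaling. It was 1.04 without the 50 genes of highest FPKM. All 6 transcription factors were higher, with a pooled ratio of 1.4 (1.12 to 1.75), and E2f1 alone had an interval above 1 (1.41, 1.03 to 1.96). The genes lower in banding with at least 1 FPKM were led by Cdk2 at 1.57 against 2.05 (ratio 0.628, 0.451 to 0.870). Rb1, Mcm6 and Ccnd3 followed with differences of -0.10, -0.09 and -0.07, and their intervals included 1. Rb1 and Rbl2 had ratios of 0.909 (0.731 to 1.13) and 0.949 (0.743 to 1.21).

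The adult pair shows how far 2 libraries of 1 group can lie apart in the same genes. Adult 2 lay above adult 1 in 13 of 20 mitosis genes, against 56.1% of all genes. For 5 of the 20 the interval lay above 1, against 14.1% of all genes above and 7.98% below. The pooled mitosis ratio of adult 2 over adult 1 was 1.47 (1.35 to 1.61). Summed mitosis FPKM was 12.9 and 18.7 in adult, so banding, at 16.3, lay between the adult libraries and sham, at 7.14, below both. With median-of-ratios scaling the sums were 13.1 and 18.4 in adult, 23.5 in banding and 10.7 in sham, so banding then lay above both adult libraries. Fibroblast and valve mesenchyme markers summed to 748 FPKM in banding and 283 in sham (8 of 8 higher), and of the 7 leukocyte markers with at least 1 FPKM in either library 5 were higher. In adult 2 against adult 1, the fibroblast list was also higher for 8 of 8 markers, 149 against 119 FPKM. The part of these cells in the mitosis result was not tested. The count of 20 mitosis genes higher in banding had no filter on level, and 3 of the 20 reached 1 FPKM in either library. Of 22 other mitosis genes with at least 1 FPKM in either library, 16 were higher in banding, 6 were lower and none met the size rule. Among those lower, Cenpf stood at 1.43 in banding (264 reads) and 2.51 in sham (633 reads), with fewer than 5 FPKM in sham. That gap is wider than those of Top2a and Mki67 in the other direction.

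**Figure D4:**
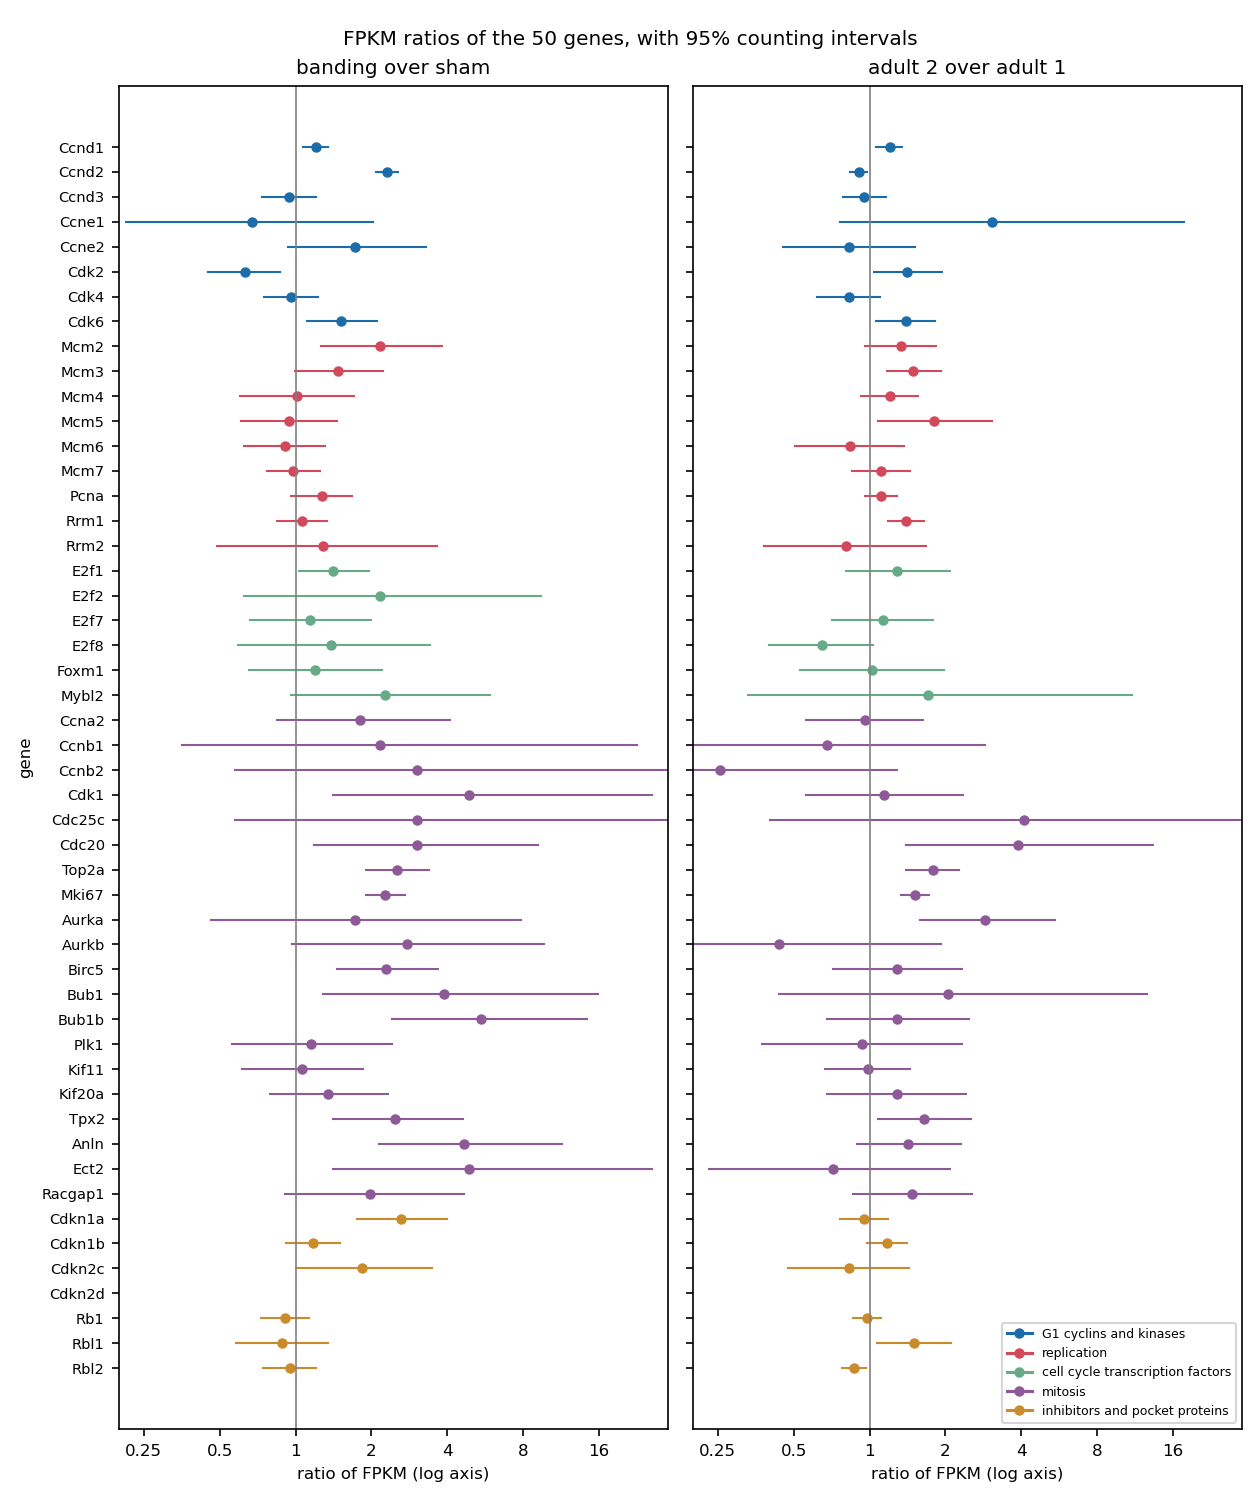
Ratio of FPKM with exact 95% counting intervals on a log axis, for banding over sham (left) and adult 2 over adult 1 (right); genes with 0 reads in either library are not drawn and intervals are clipped at the axis ends. All 20 mitosis genes lie above 1 on the left and 13 of 20 on the right.

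The KO-labelled library against E12.5 asks how cell cycle genes depend on the factor Gata4 in the embryonic heart. As given above, Gata4 itself was not lower in that library, and each group has 1 library, so no test was made. Of the 20 mitosis genes, 19 were lower in the KO-labelled library, against 49.8% of all 17192 genes with a read. For 17 of the 20 the interval lay below 1, against 20.3% of all genes. The pooled mitosis ratio was 0.763 (0.752 to 0.774). Replication genes were lower in 8 of 9, with a pooled ratio of 0.815 (0.800 to 0.830). G1 cyclins and kinases divided, 4 higher and 4 lower, with a pooled ratio of 1.09 (1.08 to 1.11). Over the 50 genes, 32 intervals lay below 1 and 5 above, against 19.2% of all genes above.

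No member met the size rule in either direction, and over 12062 genes with at least 1 FPKM 0.929% were higher and 0.506% lower. Ccna2 had the largest decrease, 5.15 in the KO-labelled library against 6.0 in E12.5, a ratio of 0.551 (0.520 to 0.583). Racgap1, a regulator of cytokinesis, stood at 4.38 against 5.06, a ratio of 0.614 (0.570 to 0.661). Mybl2 stood at 1.82 against 2.44, a ratio of 0.572 (0.473 to 0.691), on 167 and 345 reads. Pcna stood at 6.50 against 7.09, a ratio of 0.662 (0.626 to 0.699). Not every gene of mitosis and replication followed: Tpx2 was at 4.41 in both libraries (ratio 1.00, 0.937 to 1.07), Mcm6 at 5.55 and 5.52 and Mcm5 at 5.02 and 5.05.

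Among the genes that were higher, Cdkn1a had the largest difference on the log2(FPKM + 1) scale, at 3.90 in the KO-labelled library against 3.40 in E12.5, a ratio of 1.45 (1.27 to 1.66). Cdkn2d stood at 1.54 against 1.16 on 43 and 33 reads, a larger ratio of 1.54 whose interval included 1 (0.956 to 2.50). Ccnd2 and Ccnd1 stood at 7.31 and 5.03 against 7.02 and 4.76, ratios of 1.23 (1.20 to 1.25) and 1.22 (1.15 to 1.30). The D-type cyclins were thus all above their E12.5 level, with Ccnd3 at 1.06 (1.02 to 1.10), while their partner Cdk4 was lower at 0.866 (0.834 to 0.899). E2f8 was higher at 1.18 (1.06 to 1.31) and Cdkn1b lower at 0.797 (0.744 to 0.853). Of the other lists, 49 of 50 mitosis genes and 42 of 46 replication genes were lower. In the replication list Rpa3 stood at 6.14 against 7.56, and in the G1 list Mycn, a Myc family factor, stood at 3.56 against 4.71, each the only gene of its list to meet the size rule.

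Cell type markers also differed between these E12.5 libraries. Erythroid markers summed to 64800 FPKM in the KO-labelled library against 21300, cardiomyocyte markers to 5340 against 8500, fibroblast and valve mesenchyme markers to 341 against 156, and epicardial markers to 182 against 122. The ratio of summed mitosis FPKM was 0.762 as deposited, 0.760 with median-of-ratios scaling, 0.778 with upper-quartile scaling and 0.808 without the 50 genes of highest FPKM. For replication these ratios were 0.782, 0.780, 0.799 and 0.829. The part of the cell types in the result was not tested.

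**Figure D5:**
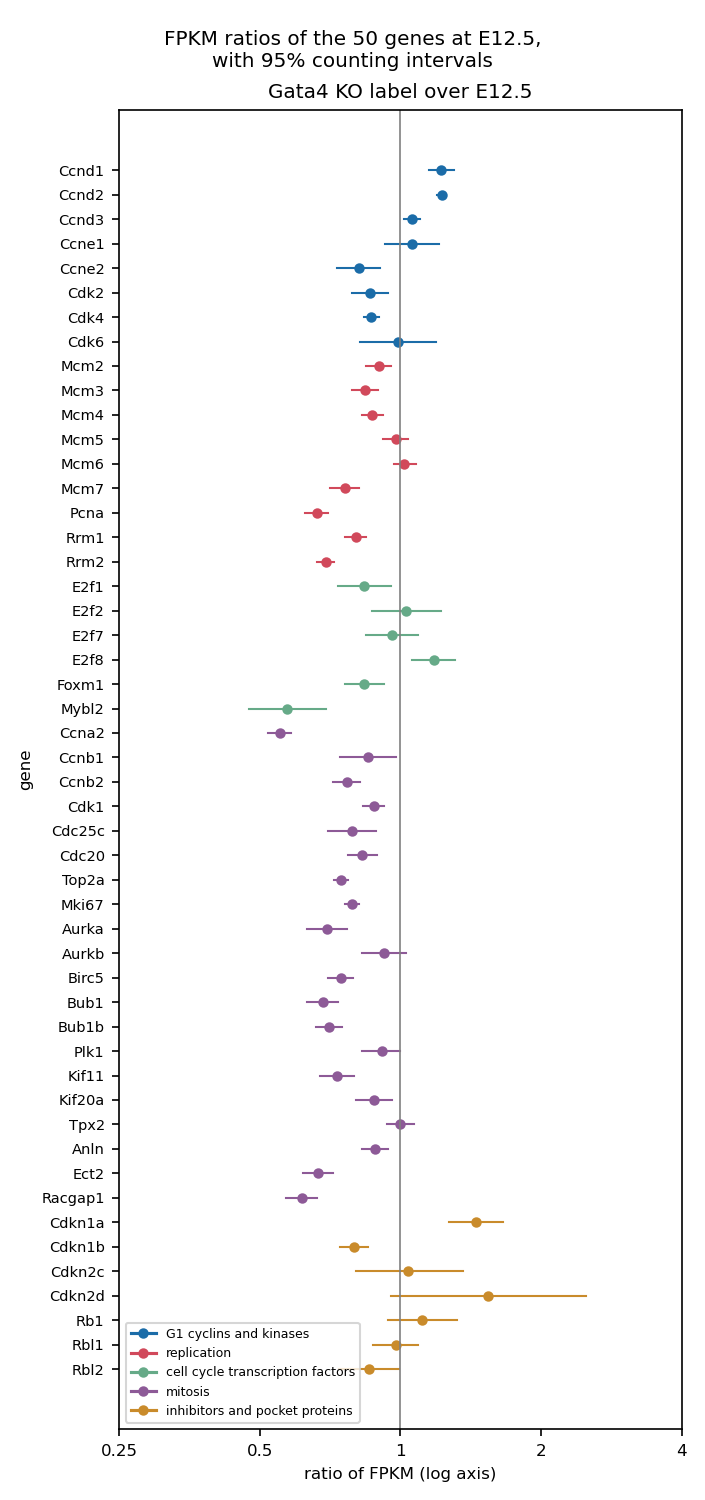
Ratio of FPKM in the KO-labelled library over E12.5 for each of the 50 genes, with exact 95% counting intervals on a log axis, coloured by class. Of the 20 mitosis genes 19 lie below 1, and Ccnd1, Ccnd2, Ccnd3, E2f8 and Cdkn1a are the 5 genes whose interval lies above 1.

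Sham hearts were set beside unoperated adult hearts to see whether the surgical control differs from adult in these genes. Of the 50 genes, 4 were lower by the size rule, Rbl2, Pcna, Cdkn1a and Rb1, and none was higher, against 22.2% of 11582 genes lower and 3.01% higher. The share of reads on listed genes was 55.6% in sham against 83.6% and 83.9% in adult. Pcna stood at 2.77 in sham against 4.56 and 4.71 in adult, and Cdkn1a at 1.29 against 3.05 and 2.98. With median-of-ratios scaling Pcna, Cdkn1a and Rbl2 stood at 3.29, 1.67 and 2.10 in sham, still below both adult libraries, at 4.58 and 4.68, 3.07 and 2.96, and 3.7 and 3.47. On that scale Rb1 stood at 2.45 in sham against 3.24 and 3.17 in adult and no longer met the size rule. On the log2(FPKM + 1) scale as deposited, the genes furthest above the adult mean in sham with at least 1 FPKM were E2f1 (1.66 against 1.07 and 1.27), Mcm6 (1.45 against 1.05 and 0.92), Cdk4 (3.11 against 2.91 and 2.68) and Mcm5 (1.03 against 0.66 and 1.03).

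Sham against E12.5 uses the same E12.5 library as the adult comparison, so its values are given beside that comparison and are not separate support for it. All 50 genes were lower in sham, as were 68.2% of all genes with a read in either library. By the size rule 43 were lower, against 39.1% of 12731 genes lower and 6.84% higher. With median-of-ratios scaling Rb1 and Rbl2 were higher in sham, as given above. The largest differences on the log2(FPKM + 1) scale were -6.56 for Rrm2 and -5.96 for Ccnb2, beside -6.24 and -5.79 in adult. The smallest was -0.02 for Rb1, and Cdk6 differed by -0.93, beside -0.35 in adult.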

How the data were processed

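The authors deposited 1 table per RNA-seq library with a value for each of 23284 genes. The values were deposited on a log2 scale, log2(FPKM + 1), which was read from the values, since undoing it gave whole-number ratios between libraries at low levels. Libraries were made from 2 µg of pooled RNA, poly(A)-selected in 2 rounds and reverse transcribed with random hexamers, per the labels' protocols. Per the submitters' processing notes, the series used build mm9 and, among other tools, TopHat 1.4 and HTSeq 0.5.3; the sources used here do not say which of them made these tables. Counting was not stated to separate near-identical copies or strands, so genes with processed pseudogenes or overlapping neighbours are uncertain.

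Whole reads were recovered for 17846 genes within 0.001 of a read and used for exact conditional binomial 95% intervals of FPKM ratios. These intervals come from the reads alone, so they cover counting error only and hold no spread between hearts. The reads carry no molecular identifiers. The adult and E12.5 libraries were fitted with limma 3.58.1 (R 4.3.3, trend option on) over the genes that reached 1 FPKM in any of the 3 libraries, on 1 residual and 1.53 prior degrees of freedom, and p-values were adjusted by Benjamini-Hochberg. The fit was also run on simulated reads in which all 3 libraries had the same spread. That run could not show whether E12.5 varies like adult. Fold changes on this scale understate the change of low genes. Comparisons of 1 library with another have no test and used the size rule (2-fold and 5 FPKM). Every member is accounted for, and values per library are given for the 4 largest differences per class, the members that rose or did not pass, the members past the size rule, and the 4 largest differences in each direction in comparisons of single libraries. From the other lists the 3 largest past each rule are named; E2f6, Tpx2, Cdk4, Bub1b, Anln, Birc5 and others with an interval away from 1 were added after their values were seen. The members, lists and rules were chosen with earlier results of these data known. Other scales, pseudocounts, filters and libraries left out were tried. Promoters came from the RefSeq table for GRCm38.p6, matched by symbol.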

Additional observations from a re-analysis of the deposited data

How the results depend on the processing

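No paired analysis was possible because the RNA-seq groups compared share fewer than 2 replicate numbers. In adult against E12.5, 46 members fell and 2 rose by limma. Among the values of single members in that comparison, 435 kept their direction and their side of the threshold, 4 lost the call, 2 gained it and 4 changed sign. The sign changes were Cdk6 and Cdkn1a with upper-quartile (0.04 and 0.04) and median-of-ratios scaling (0.10 and 0.11). Without either adult library there is no test; by size 41 to 42 members were then lower and 2 higher, against 1466 to 1548 genes higher and 3404 to 3446 lower in all. For sham against adult the same omission gave 4 to 5 members lower and 0 higher, with 315 to 376 genes higher and 2587 to 2648 lower in all.

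Counts of members moved in few settings. In banding against sham, 2 members were higher by size with upper-quartile or median-of-ratios scaling, against 144 and 139 of all 11011 genes. In the KO-labelled E12.5 library, 3 members were lower at 1.5-fold, against 297 of all 12062 genes. There, 2 replication genes lay above E12.5 without the 50 highest genes. In sham against adult, 8 members were lower at 1.5-fold and 7 with a minimum of 1 FPKM or none. Of all 11582 genes, 3799 were lower at 1.5-fold and 2996 with a minimum of 1 FPKM.

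Counts over all genes moved with the scale. Genes lower in adult than in E12.5 by size were 2217 with upper-quartile and 2142 with median-of-ratios scaling, against 3421 as deposited. Genes lower in banding than in sham were 88 on both of those scales and 113 without the 50 highest genes. In sham against adult, genes higher and lower were 1333 and 1119 with upper-quartile scaling, 1083 and 1369 with median of ratios, and 1401 and 1019 without the 50 highest genes. In sham against E12.5 they were 2306 and 2243, 2177 and 2355, and 2162 and 2490. In the KO-labelled E12.5 library, 40 genes were lower without the 50 highest genes.

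At 1.5-fold, 383 genes were higher and 216 lower in banding, 378 higher and 297 lower in the KO-labelled E12.5 library, and 685 higher in sham than in adult. With a minimum of 1 FPKM or none, 200 genes were higher and 107 lower in banding, 105 lower in the KO-labelled E12.5 library, 654 higher in sham than in adult, and 1457 higher in sham than in E12.5. The cause of these shifts was not tested. Low reads limit the banding comparison, where 18 of 20 mitosis genes had fewer than 30 reads in sham.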
